A study of Homo sapiens with 9 samples.

Results

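The ErbB family consists of the epidermal growth factor receptor EGFR, its relatives ERBB2 and ERBB3, and the ligands that bind them. The genes followed here in HT29 cells, a human colon cancer line, were 3 receptors (EGFR, ERBB2, ERBB3) and 5 ligands (AREG, EREG, TGFA, HBEGF, BTC), taken by gene symbol. All probe sets annotated to exactly 1 of these symbols were kept, which gave 28 of the 54613 probe sets tested and covered 7 of the 8 genes. EGFR had 9 probe sets, ERBB3 had 5, HBEGF had 4, ERBB2 and TGFA had 3 each, and EREG and BTC had 2 each. AREG, which encodes the ligand amphiregulin, had no probe set with its symbol alone in the annotation used and was not analysed here. Probe sets with several symbols were not kept, so this does not show that the array lacks an AREG probe set.

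The cells had been incubated for 24 h with instant caffeinated coffee at 7 µg/mL (ICC) or for 24 h with caffeic acid, a coffee polyphenol, at 1.68 µg/mL (CA), or were left untreated (Control). Both doses are given by the submitters as not cytotoxic. Total RNA of each group was hybridized to 3 Affymetrix HG-U133 Plus 2.0 arrays, numbered replicate 1, 2 and 3 in the labels. The labels do not say what a number marks or whether the replicates were separate cultures of this 1 cell line, so p-values measure the spread between these arrays, which may be technical.

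ErbB ligands are made as membrane-bound precursors and are released from the cell surface by metalloproteases such as ADAM17 and ADAM10. EGFR binds all 5 of the ligands named above, ERBB2 has no known ligand and acts as a partner of the other receptors, and ERBB3 binds neuregulins and has little kinase activity of its own. Active receptors pass their signal through RAS, RAF and ERK and through PI3 kinase and AKT, and in the intestinal epithelium they drive growth and repair. ERK activity in turn raises the transcription of several ligand genes and of feedback inhibitors of the receptors.

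The check of the cell type used 13 markers of colon epithelium, of which 11 were above the median brightness of all probe sets and 8 above the upper quartile. EPCAM averaged 13.11 and KRT18 14.38 on the log2 intensity scale, whereas CDX2 was at 5.93 and CDH17 at 4.14, near or below the median of 5.49. The summed linear signal of these markers was 55681 to 59392 in ICC, 54859 to 57877 in CA and 56079 to 59754 in Control arrays. Of 8 measured leukocyte markers, 3 were above the median and 0 above the upper quartile, with sums of 416 to 576 in ICC, 379 to 449 in CA and 409 to 593 in Control, and PTPRC, which defines leukocytes, was at 3.65. The fibroblast list had 3 of 9 markers above the median and 0 above the upper quartile. Its sums were 433 to 463 in ICC, 417 to 449 in CA and 390 to 407 in Control, so both treated groups lay above Control. The endothelial list had 2 of 7 above the median and 1 above the upper quartile. Its sums were 391 to 466 in ICC, 351 to 394 in CA and 390 to 408 in Control. What these sums mark was not tested. Arrays correlated with each other at 0.993 to 0.998 over all probe sets. Array intensity has no true count behind it, so the number of arrays limits the precision.

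The upstream sequences of 3 ligand genes are shown because levels of HBEGF, EREG and TGFA correlated at 0.738 to 0.755 across the arrays. They are the 250 bases before the RefSeq transcription start in build GRCh38.p14, written 5′ to 3′ on the strand of the gene, with matches to the searched motifs in capitals. HBEGF is on the minus strand at chr5:140346604-140346853, EREG on the plus strand at chr4:74364895-74365144, and the first listed start of TGFA on the minus strand at chr2:70553827-70554076.
HBEGF: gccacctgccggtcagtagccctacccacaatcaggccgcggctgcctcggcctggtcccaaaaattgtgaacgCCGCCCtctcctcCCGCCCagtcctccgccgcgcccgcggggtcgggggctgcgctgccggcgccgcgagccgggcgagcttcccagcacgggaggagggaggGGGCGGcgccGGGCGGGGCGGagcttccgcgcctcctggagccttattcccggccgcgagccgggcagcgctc
EREG: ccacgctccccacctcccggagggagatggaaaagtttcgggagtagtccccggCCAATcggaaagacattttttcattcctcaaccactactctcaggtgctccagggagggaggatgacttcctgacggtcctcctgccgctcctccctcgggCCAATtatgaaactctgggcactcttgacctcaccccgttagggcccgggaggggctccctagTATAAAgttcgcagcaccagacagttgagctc
TGFA: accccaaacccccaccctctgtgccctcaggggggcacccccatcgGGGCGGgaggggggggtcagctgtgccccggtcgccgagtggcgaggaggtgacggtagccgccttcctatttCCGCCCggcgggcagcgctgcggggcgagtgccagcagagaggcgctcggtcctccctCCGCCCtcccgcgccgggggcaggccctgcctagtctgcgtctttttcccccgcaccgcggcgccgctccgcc

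The motifs searched on both strands were the TATA box TATAAA, the cyclic AMP response element TGACGTCA, the AP-1 element TGANTCA, the GC box GGGCGG, the CCAAT box, the EGR1 element GCGGGGGCG and the CArG box. The HBEGF stretch held 5 matches to GGGCGG, at 176, 163, 73, 63 and 58 bases before the start, the last pair overlapping by their end base, and it had 76.4% G and C. The TGFA stretch held 3 matches to GGGCGG, at 204, 131 and 73 bases before the start, with 75.6% G and C. The other listed start of TGFA, not printed, had no match to GGGCGG and 64% G and C. The EREG stretch had 58% G and C, no GGGCGG, 2 matches to CCAAT at 196 and 95 bases before the start, and TATAAA at 32 bases before it. Among 35114 promoters of the same length, 42.6% held GGGCGG, 32% held CCAAT and 10.7% held TATAAA. TGACGTCA, found in 1.65% of promoters, TGANTCA in 6.57%, GCGGGGGCG in 4.72% and the CArG box in 1.16%, had no match in these 3 stretches. Of the receptors, the first listed start of EGFR had 2 matches to GGGCGG, and ERBB2 had 1 to CCAAT and 1 to TGANTCA. The other listed start of EGFR had no GGGCGG, but 2 matches to TATAAA and 2 to TGANTCA. The stretch of AREG, not measured here, had 1 match each to TATAAA, TGACGTCA and GGGCGG. EREG and BTC lie on chromosome 4 with EPGN and AREG, in the order EPGN, EREG, AREG, BTC with no other protein-coding gene between them. Such matches describe the letters only.

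All values that follow are log2 intensities, each array's deposited linear value on a log2 scale, and brightness was not compared between genes, since it depends on the probes. Of the 28 probe sets, 20 were at or above the median brightness and 12 above the upper quartile of 7.61, so each of the 7 measured genes had at least 1 probe set above the median. The 8 probe sets below the median were 4 of EGFR, 2 of ERBB3, 1 of ERBB2 and 1 of HBEGF. Probe sets of a gene are named by their order of mean brightness over the 9 arrays, and the brightest is described first.

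EGFR, the receptor that gives the family its name, read 9.67, 9.63 and 10.07 in ICC, 9.61, 9.78 and 9.84 in CA and 9.94, 9.65 and 10.05 in Control arrays with the brightest EGFR probe set. The groups overlapped, and their means of 9.79 ± 0.241 in ICC, 9.74 ± 0.119 in CA and 9.88 ± 0.207 in Control (SD, n = 3 each) lay closer together than the arrays within a group. Of the others, the second and the third brightest followed it across the 9 arrays with correlations of 0.822 and 0.817. The remaining 6 EGFR probe sets followed it weakly, at 0.161 to 0.381.

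ERBB2, the receptor without a known ligand, read 9.81, 9.63 and 9.95 in ICC, 9.59, 9.59 and 9.87 in CA and 9.75, 9.55 and 9.75 in Control arrays with the brightest ERBB2 probe set. In each group the lowest or joint lowest array was the one numbered 2, and the group means were 9.80 ± 0.16 in ICC, 9.68 ± 0.164 in CA and 9.69 ± 0.116 in Control (SD, n = 3 each). The second brightest ERBB2 probe set behaved otherwise, with 7.18, 6.54 and 6.77 in ICC, 6.79, 6.46 and 6.39 in CA and 6.88, 6.40 and 6.39 in Control arrays. There the array numbered 1 was the highest of its group in all 3 groups. The third brightest ERBB2 probe set was below the median brightness at 4.84, 4.50 and 4.84 in ICC, 4.84, 4.82 and 4.56 in CA and 5.0, 4.93 and 5.16 in Control arrays. The 3 Control arrays were the highest of the 9. Across the arrays, the second and the third brightest ERBB2 probe sets correlated with the brightest at only 0.299 and -0.0394.

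ERBB3, the neuregulin receptor that signals through its partners, read 10.58, 10.47 and 10.77 in ICC, 10.22, 10.43 and 10.58 in CA and 10.38, 10.38 and 10.67 in Control arrays with the brightest ERBB3 probe set. The means followed the order ICC 10.61 ± 0.152, Control 10.47 ± 0.17 and CA 10.41 ± 0.183 (SD, n = 3 each), with overlapping arrays between neighbours in that order. The second brightest ERBB3 probe set ran parallel to it, with a correlation of 0.926 across the 9 arrays and means of 9.16 in ICC, 8.99 in CA and 8.98 in Control. The remaining ERBB3 probe sets did not follow the brightest, with correlations of -0.0814 to 0.173.

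Among the ligands, HBEGF (heparin-binding EGF-like growth factor) varied most. With the brightest HBEGF probe set it read 8.50, 9.67 and 8.33 in ICC, 8.33, 10.15 and 7.63 in CA and 9.76, 9.70 and 7.75 in Control arrays. The array numbered 3 was the lowest in every group, the array numbered 2 was the highest in ICC and CA, and in Control numbers 1 and 2 were alike. Its pooled SD within groups was 1.08, rank 4 of all 54613 probe sets from the most variable. The second brightest HBEGF probe set gave the same pattern with a correlation of 0.996 and a pooled SD of 1.04, rank 7. The other 2 HBEGF probe sets ranged over only 0.33 and 0.19 across all arrays at mean levels of 5.54 and 4.39, near or below the median brightness.

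EREG (epiregulin) read 11.16, 11.52 and 11.46 in ICC, 10.87, 11.91 and 10.94 in CA and 11.31, 11.16 and 10.77 in Control arrays with the brightest EREG probe set. The means ran in the order ICC 11.38 ± 0.193, CA 11.24 ± 0.578 and Control 11.08 ± 0.276 (SD, n = 3 each), with overlap between all groups. The other EREG probe set followed it at a correlation of 0.906.

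TGFA (transforming growth factor alpha) read 9.56, 9.67 and 9.76 in ICC, 9.55, 9.93 and 9.62 in CA and 9.76, 9.87 and 9.57 in Control arrays with its brightest probe set. These groups overlapped. With the third brightest TGFA probe set the values were 6.97, 6.95 and 6.73 in ICC, 6.79, 7.06 and 6.74 in CA and 7.34, 7.41 and 6.97 in Control arrays. There Control arrays 1 and 2 lay above all 6 treated arrays, while Control array 3 fell among them.

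BTC (betacellulin) read 6.95, 6.91 and 7.13 in ICC, 7.12, 7.08 and 6.80 in CA and 7.19, 6.92 and 6.81 in Control arrays with the brightest BTC probe set. Its group means, 7.00 ± 0.115 in ICC, 7.00 ± 0.173 in CA and 6.97 ± 0.196 in Control (SD, n = 3 each), were the closest together of the 7 brightest probe sets. The other BTC probe set followed it at a correlation of 0.896 and ranged over 1.00.

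**Figure D1:**
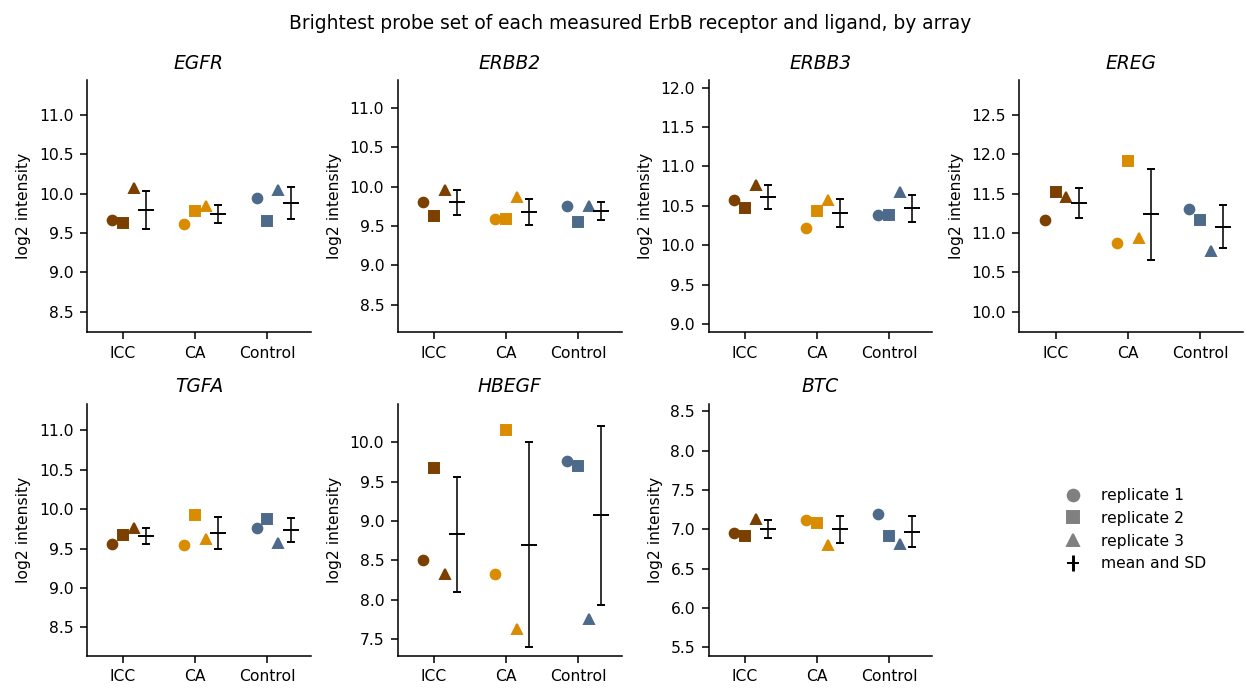
Log2 intensity (y axis, a separate range of equal span in each panel) of the brightest probe set of each measured receptor and ligand in ICC, CA and Control arrays, with 1 point per array, the shape giving the replicate number and the bar the mean with its SD (n = 3). HBEGF spans 7.63 to 10.15, with the arrays numbered 3 lowest in every group, whereas EGFR spans 9.61 to 10.07 and the 3 groups overlap in all 7 panels.

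Whether coffee changed the family was asked by setting ICC against Control arrays. In RNA from whole cultures, where fewer expressing cells and less RNA per cell cannot be told apart, no receptor or ligand probe set passed the test: 0 of 28 had an adjusted p under 0.05 (limma, Benjamini-Hochberg over 54613 probe sets), where 0% of all probe sets did. At an unadjusted p under 0.05 there were 2 of 28, both lower in ICC, where 3.43% of all probe sets were lower and 8.23% passed in either direction. These were the third brightest probe sets of TGFA and of ERBB2. Separate ranges in ICC and Control were found for 1 of 28 probe sets, the third brightest ERBB2 probe set, where 11.8% of all probe sets had them. With the replicate number as a block the count stayed at 0 of 28 at the adjusted threshold, where 0.00366% of all probe sets passed. The block moved the count at an unadjusted p under 0.05 to 4 of 28, 2 higher and 2 lower in ICC, where 12.8% of all probe sets passed. The lower pair was as before, and the higher pair was the second brightest probe sets of ERBB2 and of ERBB3. The 28 differences ran between -0.36 and 0.30 with a median of -0.023, beside 0.014 over all probe sets, and 42.9% of them lay above 0, beside 54.9% of all.

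The third brightest TGFA probe set averaged 6.88 in ICC and 7.24 in Control, a difference of -0.36 ± 0.13 (SE; 95% interval -0.64 to -0.07; limma unadjusted p = 0.0202, adjusted p = 0.553). It was lower in ICC in all 3 pairs of arrays with the same number, by 0.37, 0.46 and 0.24 on the log2 scale. The brighter TGFA probe sets gave smaller differences, -0.07 (95% interval -0.33 to 0.18) for the brightest and -0.13 (-0.40 to 0.14) for the second brightest. The third brightest ERBB2 probe set averaged 4.73 in ICC and 5.03 in Control, a difference of -0.30 (95% interval -0.56 to -0.05; limma unadjusted p = 0.025, adjusted p = 0.566). The 2 brighter ERBB2 probe sets had differences of the other sign, 0.11 (-0.13 to 0.35) for the brightest and 0.27 (-0.13 to 0.68) for the second brightest, so the ERBB2 probe sets did not run one way. With the block the second brightest had an interval of 0.10 to 0.45 (limma unadjusted p = 0.00617, adjusted p = 0.237) and was higher in ICC in 3 of 3 pairs. The brightest ERBB3 probe set differed by 0.13 (-0.13 to 0.40) and the brightest EGFR probe set by -0.09 (-0.39 to 0.21). The brightest EREG probe set differed by 0.30 (-0.25 to 0.85) and the brightest BTC probe set by 0.03 (-0.24 to 0.29).

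HBEGF had the widest intervals. The brightest HBEGF probe set averaged 8.83 ± 0.73 in ICC and 9.07 ± 1.14 in Control (SD, n = 3 each), a difference of -0.24 with a 95% interval of -1.74 to 1.26, which reaches as far as a 3.34-fold change. Between arrays of the same number it was -1.26, -0.03 and 0.58, so the sign changed among the pairs. Leaving out 1 array moved the difference to between -0.90 (without Control array 3) and 0.10 (without Control array 1). For 26 of the 28 probe sets the interval lay within 1 log2 unit of 0 on both sides, and for 20 within 0.5, the 2 exceptions to the first limit being the brightest and second brightest of HBEGF.

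Caffeic acid was set against the same Control arrays, so its differences and those of coffee share that spread. Again 0 of 28 probe sets had an adjusted p under 0.05 (limma), where 0% of all probe sets did. At an unadjusted p under 0.05 there were 3 of 28, all lower in CA, where 2.49% of all probe sets were lower and 4.68% passed in either direction. They were the third brightest probe sets of TGFA and ERBB2 and the fourth brightest of EGFR. By name the ERBB2 and EGFR ones are _x_at probe sets and the TGFA one is an _s_at probe set. With the block the count was again 3 of 28, the same probe sets, where 8.22% of all probe sets passed. Only the third brightest ERBB2 probe set had groups without overlap, 1 of 28, where 7.85% of all probe sets had none. The differences ran between -0.38 and 0.28 with a median of -0.034, beside -0.0047 over all probe sets, and 32.1% lay above 0, beside 48.0% of all.

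The third brightest TGFA probe set averaged 6.86 in CA and 7.24 in Control, a difference of -0.38 (95% interval -0.66 to -0.09; limma unadjusted p = 0.0155, adjusted p = 0.986). The third brightest ERBB2 probe set averaged 4.74 in CA and 5.03 in Control, a difference of -0.29 (-0.55 to -0.04; limma unadjusted p = 0.0289, adjusted p = 0.986). The fourth brightest EGFR probe set read 7.50, 7.35 and 7.43 in CA and 7.81, 7.48 and 7.67 in Control arrays, so that the top CA array lay just above the bottom Control array. Its difference was -0.23 (-0.45 to -0.01; limma unadjusted p = 0.0422, adjusted p = 0.986), while the brightest EGFR probe set differed by -0.13 (-0.43 to 0.17). The brightest ERBB2 and TGFA probe sets differed by 0.00 (-0.24 to 0.24) and -0.04 (-0.29 to 0.22). The brightest EREG probe set differed by 0.16 (-0.39 to 0.71), the brightest ERBB3 probe set by -0.07 (-0.33 to 0.20) and the brightest BTC probe set by 0.03 (-0.24 to 0.29). The brightest HBEGF probe set averaged 8.70 ± 1.30 in CA and 9.07 ± 1.14 in Control (SD, n = 3 each), a difference of -0.37 (-1.87 to 1.13), with -1.43, 0.44 and -0.12 in the 3 same-numbered pairs. Leaving out 1 array moved it to between -1.09 (without CA array 2) and 0.17 (without CA array 3).

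**Figure D2:**
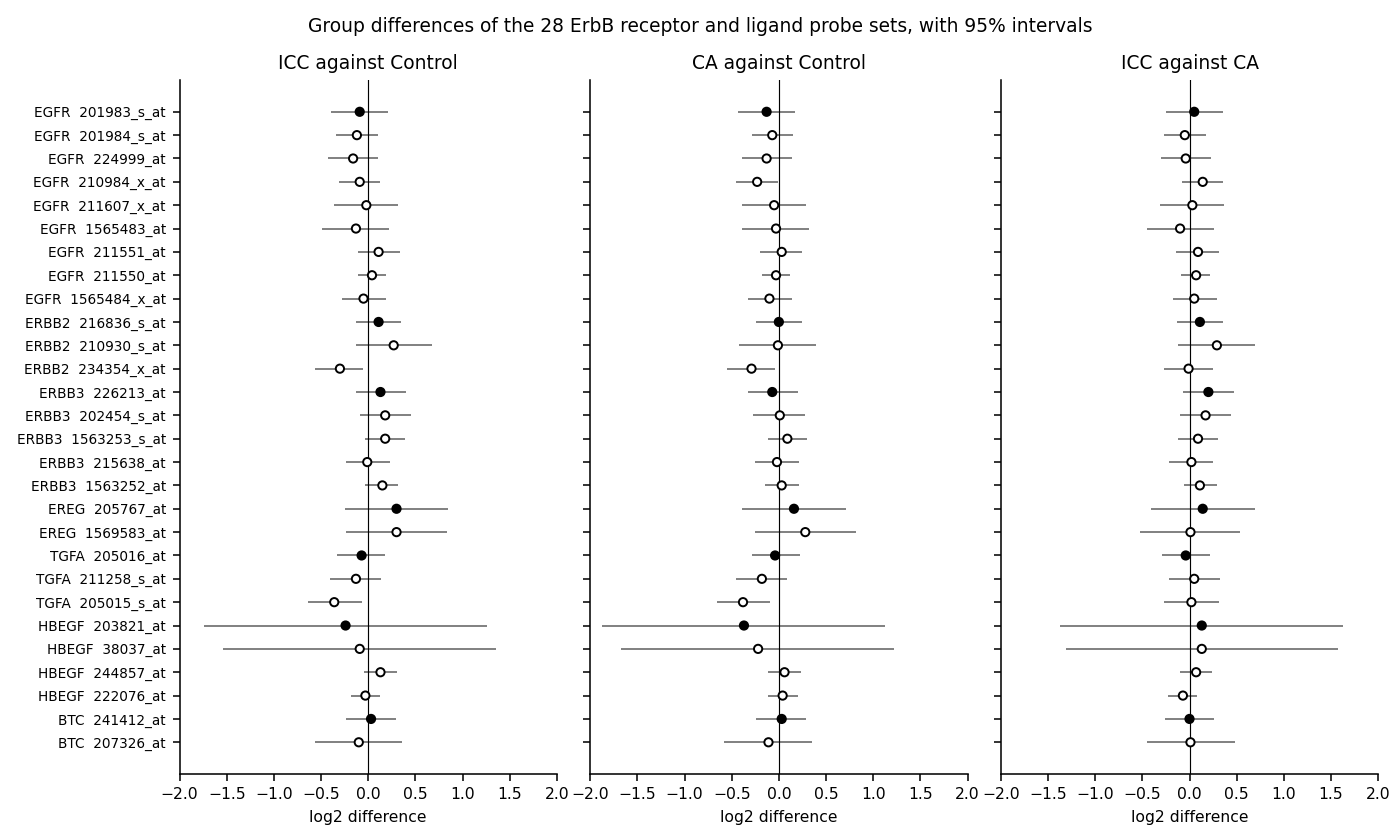
Log2 difference (x axis) with its 95% interval from limma for each of the 28 probe sets (rows, the brightest of a gene uppermost) in the 3 contrasts between groups, filled points marking the brightest probe set of a gene. Most intervals cross 0, and those of the 2 brightest HBEGF probe sets are the widest, reaching -1.74 and 1.26 for the brightest in the left panel.

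ICC and CA were given at different doses, so their values are set side by side only as groups of the design. Between them 0 of 28 probe sets had an adjusted p under 0.05, where 0% of all did, and 0 had an unadjusted p under 0.05 (limma), where 2.65% of all did. No probe set had groups without overlap, where 5.89% of all probe sets did. The differences ran between -0.10 and 0.29 with a median of 0.052, beside 0.018 over all probe sets, and 21 of 28 lay above 0, beside 57.7% of all. The second brightest ERBB2 probe set and the brightest ERBB3 probe set stood at the upper end, with 0.29 (95% interval -0.12 to 0.69) and 0.20 (-0.07 to 0.47). With the replicate block these 2 of 28 had an unadjusted p under 0.05, where 5.51% of all probe sets did (limma unadjusted p = 0.00484 and 0.0271, adjusted p = 0.882 for both).

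How the arrays fell by replicate number was described because the number took more of the variance than the group did in most of these probe sets. Over the 9 arrays, the share of variance between numbers exceeded that between groups in 21 of 28 probe sets and in all 7 brightest ones. For the brightest HBEGF probe set it was 77.3% between numbers, 2.91% between groups and 19.8% in neither. For the brightest ERBB2 probe set it was 69.0% and 15.4%, and for the brightest ERBB3 probe set 61.8% and 26.5%. The third brightest probe sets of TGFA and ERBB2 were the 2 with over 50% between groups, 56.3% and 53.7%. Such shares were not computed over all probe sets, so whether these counts are particular to the family was not tested. In a fit with group and number as terms, 3 of 28 probe sets differed among numbers at an adjusted p under 0.05 (limma), where 4.72% of all probe sets did. These were the second brightest ERBB2 probe set (adjusted p = 0.0132), the brightest HBEGF probe set (0.0172) and the second brightest HBEGF probe set (0.0188).

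HBEGF was higher in the arrays numbered 2 than in those numbered 3 in every group. The brightest HBEGF probe set averaged 9.84 in number 2 and 7.91 in number 3, a difference of 1.93 (95% interval 1.25 to 2.62), or 3.82-fold (limma adjusted p = 0.0261). Within groups the step between numbers 2 and 3 was 1.34 or 2.53-fold in ICC, 2.52 or 5.72-fold in CA and 1.95 or 3.86-fold in Control. The second brightest HBEGF probe set gave 1.85 (1.18 to 2.52), or 3.61-fold (limma adjusted p = 0.0278). These 2 HBEGF probe sets were the 2 of 28 that passed for number 2 against 3, where 0.965% of all probe sets did and 0.493% were higher in number 2. Sorted by that difference, they held ranks 3 and 6 of 54613. The call did not survive the loss of Control array 2 or 3, CA array 2 or 3, or ICC array 2, where the brightest HBEGF probe set kept a difference of 1.58 to 2.19 with adjusted p between 0.067 and 0.176. With the mean of all 4 HBEGF probe sets the difference was 0.93, still with an adjusted p under 0.05 (limma). Number 1 did not take a fixed place, since HBEGF there read 9.76 in Control but 8.50 in ICC and 8.33 in CA.

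The other ligands moved less between these numbers. The brightest EREG probe set differed by 0.47 (95% interval 0.05 to 0.89; limma adjusted p = 0.305), with 0.06 in ICC, 0.96 in CA and 0.39 in Control. The brightest TGFA probe set differed by 0.17 (-0.04 to 0.38; limma adjusted p = 0.51), with -0.09 in ICC, 0.31 in CA and 0.30 in Control, and the third brightest by 0.33 (0.14 to 0.51; limma adjusted p = 0.0974). The brightest BTC probe set differed by 0.06 (-0.18 to 0.29). For the receptors the differences ran the other way, with -0.30 (-0.51 to -0.09) for the brightest EGFR probe set, -0.27 (-0.44 to -0.10) for the brightest ERBB2 probe set and -0.25 (-0.42 to -0.08) for the brightest ERBB3 probe set. None of these 3 passed (limma adjusted p = 0.185, 0.134 and 0.17). The arrays numbered 2 all lay above those numbered 3 in 3 of 28 probe sets, those 2 of HBEGF and the second brightest TGFA probe set, where 7.85% of all probe sets did. They all lay below in 5 of 28, 2 each of EGFR and ERBB3 and 1 of ERBB2, where 8.18% of all probe sets did.

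For number 1 against the mean of 2 and 3, 2 of 28 probe sets had an adjusted p under 0.05 (limma), where 4.05% of all did. The second brightest ERBB2 probe set averaged 6.95 in number 1, 6.47 in number 2 and 6.52 in number 3, and was 0.46 higher in number 1 (95% interval 0.31 to 0.62; limma adjusted p = 0.00629), with 0.53 in ICC, 0.37 in CA and 0.49 in Control. The call was lost without ICC array 1, at 0.43 and an adjusted p of 0.0552. The brightest ERBB2 probe set differed by only -0.01 (95% interval -0.15 to 0.14) in this contrast and the third brightest by 0.09 (-0.12 to 0.30). The sixth brightest EGFR probe set, below the median brightness, read 4.86, 5.06 and 5.28 in ICC, 4.99, 5.11 and 5.40 in CA and 4.87, 5.43 and 5.30 in Control arrays. It was lower in number 1 by 0.35 (difference -0.35, 95% interval -0.53 to -0.17; limma adjusted p = 0.0382), a call lost on leaving out any 1 of 8 arrays, all but CA array 2. No other EGFR probe set passed in this contrast. Across this step 2 of 8 leukocyte markers were higher in number 1 at an adjusted p under 0.05 (limma), LAPTM5 by 0.69 and CD14 by 0.49. Over all genes, 690 of 19775 were higher and 161 lower at that threshold. The leukocyte list as a whole did not run one way, with 4 markers above 0, 4 below and a median of -0.022. The colon marker LGALS4 fell by 0.45 on the log2 scale (limma adjusted p = 0.0064), while KRT20 was 0.17 higher (limma adjusted p = 0.18). Of the 13 colon markers, 4 lay above 0 and 9 below. Their part in the result was not tested.

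**Figure D3:**
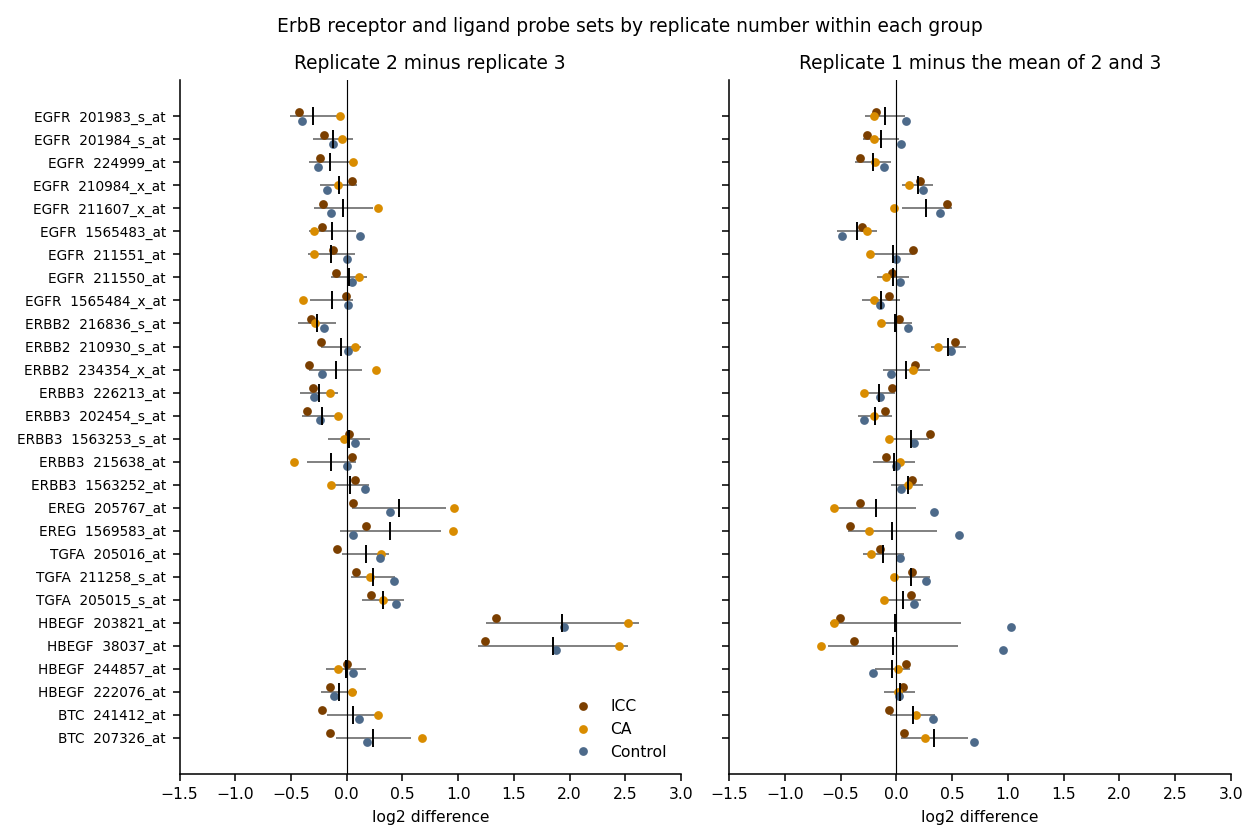
Log2 difference (x axis) between arrays numbered 2 and 3 (left) and between number 1 and the mean of 2 and 3 (right) for the 28 probe sets (rows, the brightest of a gene uppermost), with a point for each of ICC, CA and Control, a tick at the mean and a line for its 95% interval. The 2 brightest HBEGF probe sets stand apart on the left at 1.93 and 1.85. On the right the second brightest ERBB2 probe set lies at 0.46 with all 3 groups above 0, and the brightest ERBB2 probe set at -0.01.

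Across the 9 arrays, the brightest probe sets of the ligands HBEGF, EREG and TGFA correlated with each other at 0.755 (HBEGF with EREG), 0.755 (HBEGF with TGFA) and 0.738 (EREG with TGFA), and those of ERBB2 and ERBB3 at 0.802. EGFR correlated at 0.678 with ERBB2 and 0.694 with ERBB3. HBEGF ran against ERBB2 at -0.621 and against ERBB3 at -0.496. These values describe 9 arrays that share groups, numbers and scaling, and they carry no test. Among 11834 other genes at or above the median brightness, the pattern of HBEGF was most like GAREM1 (r = 0.992) and MAFF (0.980). EGFR was most like BLTP2 (0.987) and PLAC8 (0.966), ERBB2 like CLDN4 (0.965) and HFE (0.947), and ERBB3 like ATP2A3 (0.958) and CAPN8 (0.943). EREG was most like NAT9 (0.951) and PSPH (0.951), TGFA like KDM5B (0.927) and SINHCAF (0.914), and BTC like TRIM25 (0.896) and CCDC22 (0.889).

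The rest of the pathway was read with 1 probe set per gene. In all 3 contrasts between groups, 0 genes passed in any of 6 lists: 6 measured relatives of the family (ERBB4, EGF and neuregulins among them), 11 of ligand release, 16 inhibitors and ubiquitin ligases, 15 of receptor trafficking, 23 adaptors and kinases and 15 genes that ERK activity is known to induce. Over all 19775 genes, 0 passed as well (limma). At an unadjusted p under 0.05, coffee against Control had 1 of the relatives, 1 of release, 2 inhibitors, 2 of trafficking, 3 adaptors and 0 ERK-induced genes, where 1127 of all genes were higher and 361 lower. Caffeic acid against Control had 2 of release, 1 inhibitor and 0 in the other lists, where 495 of all genes were higher and 372 lower. In ICC against Control the smallest p of the release list was that of ADAM15, a surface metalloprotease, with 8.82 in ICC and 8.54 in Control (limma unadjusted p = 0.00862, adjusted p = 0.514). MAP2K2, a kinase that activates ERK, had 9.29 in ICC and 8.98 in Control (limma unadjusted p = 0.0183, adjusted p = 0.55). PDPK1 of the same list went the other way, with 9.95 in ICC and 10.2 in Control (limma unadjusted p = 0.0266, adjusted p = 0.569). The median difference of the ERK-induced list was 0.05 in ICC against Control and -0.042 in CA against Control, beside 0.028 and 0.0027 over all genes.

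Between numbers 2 and 3, where HBEGF differed, several ERK-induced genes differed too. For number 2 against 3, 4 of its 15 genes were higher and 0 lower at an adjusted p under 0.05 (limma), where 128 of 19775 genes were higher and 85 lower. Its median difference was 0.44 with 13 of 15 genes above 0, beside -0.0028 and 48.8% over all genes. The family members and all the pathway lists were chosen with earlier results of these data known. Their counts therefore describe these arrays and are no independent test. EGR1, an immediate-early transcription factor, read 11.49, 12.17 and 10.52 in ICC, 11.28, 12.54 and 10.28 in CA and 11.53, 12.48 and 10.22 in Control arrays. Number 2 was the highest and number 3 the lowest in all 3 groups, and the difference of 2.05 (limma adjusted p = 0.000168) held rank 1 of all 54613 probe sets. It was still called in 9 of 9 fits that each left out 1 array.

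MAFF, a small basic leucine zipper factor, was 0.93 higher in number 2 (limma adjusted p = 0.027) and DUSP6, the phosphatase that inactivates ERK, 0.75 higher (limma adjusted p = 0.0415). FOSL1, an AP-1 subunit named after its values were seen, was 0.78 higher (limma adjusted p = 0.0447). Of the inhibitors, 2 of 16 were higher and 0 lower: ERRFI1, which binds and blocks the EGFR kinase, by 1.14 (limma adjusted p = 0.0473) and SPRY4, an inhibitor of RAS to ERK signalling, by 0.90 (limma adjusted p = 0.0281). These 5 calls were less stable than that of EGR1: MAFF and SPRY4 were kept in 4 of 9 fits without 1 array and DUSP6, FOSL1 and ERRFI1 in 2 of 9. The adaptor, trafficking and release lists and the relatives of the family had 0 calls there. Of the leukocyte, fibroblast and endothelial markers 0 passed, and of the colon markers LGALS4 was higher in number 2 by 0.44 (limma adjusted p = 0.0377).

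For number 1 against 2 and 3, the release list had 2 genes higher and 1 lower of 11 (limma adjusted p under 0.05), where 690 of 19775 genes were higher and 161 lower. RHBDF2, a partner that ADAM17 needs to reach the surface, was 0.30 higher, and FURIN, the protease that matures ADAM precursors, 0.32 higher, while the metalloprotease ADAM9 fell by 0.29 on the log2 scale. In the ERK-induced list 2 of 15 were higher, the phosphatase DUSP4 by 0.33 and IER3 by 0.48.

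**Figure D4:**
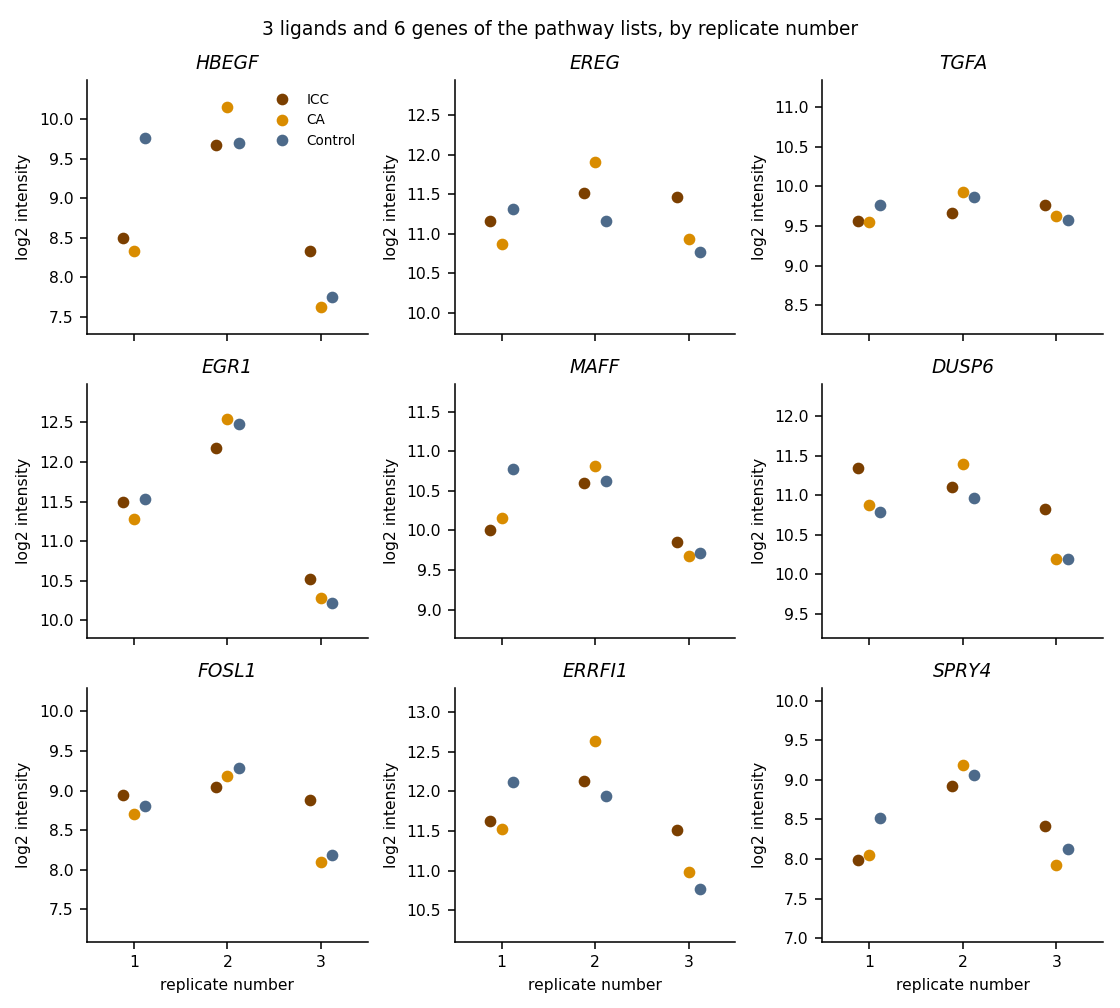
Log2 intensity (y axis, equal span in each panel) against replicate number (x axis) for 3 ligands and 6 genes of the ERK-induced and inhibitor lists, with 1 point per array coloured by group. EGR1 is highest in number 2 and lowest in number 3 in all groups, between 10.22 and 12.54, and HBEGF, MAFF and ERRFI1 share a high Control array in number 1, at 9.76 for HBEGF.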

How the data were processed

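RNA of HT29 cells was read on 9 arrays (Affymetrix HG-U133 Plus 2.0), 3 each of ICC, CA and Control. Per the submitters' processing notes, the deposited intensity values were made with RMA; the design text names GeneSpring GX. Their versions and settings were not given in the sources used here. A log2 table was expected, but the deposited values were linear, with array medians of 43.8 to 46.6 and maxima of 23682 to 25995, so their log2 was taken. In 54% of probe sets 2 or more arrays shared an identical value.

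Of 54675 probe sets, 62 controls were left out. The annotation gave 41091 probe sets 1 symbol, 1801 several and 11721 none, and 41037 matched RefSeq, with 0 symbols updated. All 54613 were fitted with limma 3.58.1 in R 4.3.3 (groups over 9 arrays, moderated tests, two-sided, Benjamini-Hochberg over all, threshold 0.05), without a filter on brightness. Numbers were tested in a fit of group plus number. An exact permutation test of 3 against 3 arrays cannot go below p = 0.1, so none was used. The fits were tested on simulated data, and figures drawn with matplotlib 3.10.9.

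Same-numbered arrays of different groups deviated together, with correlations of 0.271 to 0.478 in all 9 pairs, against -0.407 to 0.077 for other pairs. The numbers were therefore taken to pair the arrays, a pairing that comes from the data and the labels' shared numbers. A fit with number as a block is the alternative to the fit without it.

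The text names all measured family genes, with array values for the brightest probe set and any with an unadjusted p under 0.05 in a comparison, up to 3 genes of smallest p per pathway list, and the 2 best-correlated genes per family gene. The members and lists were chosen with earlier results of these data known. Alternatives tried were the replicate block, fixed or random, 1 value per gene, further normalization, filters, weights, 16 added before log2, 2 groups at a time and leaving out each array. Promoters come from RefSeq, GRCh38.p14.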

Additional observations from a re-analysis of the deposited data

How the results depend on the processing

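In the 3 contrasts between groups (coffee against Control, caffeic acid against Control, coffee against caffeic acid), the adjusted p of every family probe set remained over 0.05 in each of the 16 to 20 alternative settings it was run in (498 values per comparison), the lowest being 0.175, 0.408 and 0.882. The sign of the difference changed in 20, 47 and 54 of these values. With the replicate block, 0 of 28 probe sets were called in any of the 3 comparisons, the count over all probe sets in ICC against Control was 2 in place of 0 (0.00366%; 0 with number as a random block), and the third brightest TGFA probe set had an adjusted p of 0.175 in ICC and 0.408 in CA against Control. The block changed no other call at the adjusted threshold. At an unadjusted p under 0.05 it moved the count from 2 to 4 in ICC against Control and from 0 to 2 in ICC against CA. Between numbers, the 3 probe sets that differed among numbers became 1 with the brightest or the mean probe set per gene (fewer values tested), 5 with quantile normalization again, 1 with 16 added before log2, and 1 to 4 on leaving out an array. For number 1 against 2 and 3, the 2 calls became 0 with the brightest or mean probe set, 1 without dim probe sets, 1 without _x_at and _s_at probe sets, 1 with 16 added, and 0 to 3 on leaving out an array. For number 2 against 3, the 2 calls became 1 with the brightest or mean probe set, 0 with 16 added (1.865, adjusted p = 0.0651 for the brightest HBEGF probe set), and 0 to 2 on leaving out an array. Some losses were fixed in advance, since the setting leaves out the called probe set. The brightest setting leaves out the second brightest sets of ERBB2 and HBEGF and the sixth brightest of EGFR. The dim filter leaves out that EGFR probe set, and the _x_at and _s_at filter that ERBB2 one. For number 1 against 2 and 3, these passed in 5 (EGFR) and 13 (ERBB2) of the 14 settings that kept them. Fits on fewer arrays or values aside, the cause of the other changes was not tested. Neither rescaling moved the median of all probe sets by over 0.1. The widest intervals between groups were those of HBEGF.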
